A study of Saccharomyces cerevisiae with 16 samples.

Results

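The 10 genes described here encode the folding machinery of the yeast endoplasmic reticulum (ER) and the transcription factor that adjusts it. They are the chaperone gene KAR2, the nucleotide exchange factor genes LHS1 and SIL1, the J-protein genes SCJ1 and JEM1, the disulfide isomerase genes PDI1, EUG1 and MPD1, the ER oxidase gene ERO1, and HAC1. They were taken by symbol from a table of 6692 genes, and all 10 were found, each on 1 row. RNAseq and Riboseq libraries had been made from the same extracts of 8 cultures, 2 in each of 4 groups: ∆ntd grown with urea (∆ntd urea), WT grown with urea (WT urea), ∆ntd grown without it (∆ntd SD) and WT grown without it (WT SD). Every culture was a haploid BY4741-type strain whose chromosomal TIF3 gene, for the translation initiation factor eIF4B, had been deleted. A single-copy plasmid returned the nutrient markers HIS3, LEU2, URA3 and MET15 together with a His-tagged TIF3 behind its own promoter, either whole (WT) or without the N-terminal domain that binds the small ribosomal subunit (∆ntd). Cultures grew in synthetic dextrose medium (SD) with or without 3% urea and were collected in mid-log phase. A difference between media is thus one between cultures grown up in each. Urea is a denaturant that crosses the cell membrane and can serve yeast as a nitrogen source. The authors consider denaturation of nucleic acids and blebbing of the membrane unlikely at the level used. They report that urea hardly affected growth of WT and slowed ∆ntd. Cycloheximide was in the lysis buffer and in the sucrose gradients.

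The RNAseq libraries held 1888481 to 5169546 counted reads each, and the Riboseq libraries 3067506 to 17380262. The plasmid-borne TIF3 was read in every library, at 1949 to 3286 CPM (counts after scaling for library size) in RNAseq, so neither strain label was at odds with the counts, although a total per gene does not show whether the N-terminal part is missing. Of the mating-type markers, the 6 a-specific genes were present in every RNAseq library and the 3 alpha-specific genes stayed at 20 counts or fewer, as in MATa cells. The Riboseq replicates of ∆ntd urea stood further apart than the others. The median absolute log2 ratio between replicates, over 5251 genes, was 0.313 in ∆ntd urea cultures, 0.131 in WT urea cultures, 0.0902 in ∆ntd SD cultures and 0.0945 in WT SD cultures. Nothing was used to scale to cell number, so all values are shares of the RNA or of the footprints of a culture.

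The unfolded protein response (UPR) of budding yeast begins when unfolded protein in the ER lumen activates the kinase and nuclease Ire1. Ire1 cuts an intron from cytoplasmic HAC1 mRNA, the tRNA ligase Trl1 joins the exons, and the Hac1 protein made from the spliced mRNA enters the nucleus and binds unfolded protein response elements upstream of KAR2, PDI1 and many other genes. The unspliced HAC1 mRNA is abundant but hardly translated, because its intron pairs with its 5′ leader. KAR2 RNA is the customary readout of this response. Counts per gene do not separate spliced from unspliced HAC1 mRNA, and the part of each transcript that was counted is not given in the sources used here.

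Levels were first set side by side per kilobase of coding sequence, in WT SD cultures. HAC1 had the most RNA of the 10 genes, at 1456 and 1649 CPM per kb, ahead of KAR2 at 711 and 754 and PDI1 at 590 and 585. SCJ1 followed at 99.0 and 97.5 CPM per kb, ERO1 at 60.7 and 58.1, LHS1 at 49.5 and 49.4, EUG1 at 41.5 and 47.0, SIL1 at 36.7 and 43.7, MPD1 at 30.6 and 30.3, and JEM1 at 16.4 and 13.6. In this order only EUG1 and SIL1 overlapped as neighbours. The order by footprints was different. PDI1, which forms and rearranges disulfide bonds, came first at 971 and 860 footprint CPM per kb, and KAR2 second at 289 and 282. SCJ1, EUG1, ERO1, LHS1, MPD1 and SIL1 lay between 19.6 and 61.6. HAC1 was second from last at 18.6 and 19.9, overlapping SIL1, and JEM1 was last at 7.42 and 7.82. EUG1 and ERO1, and LHS1 and MPD1, were the other neighbours in this order whose cultures overlapped.

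**Figure D1:**
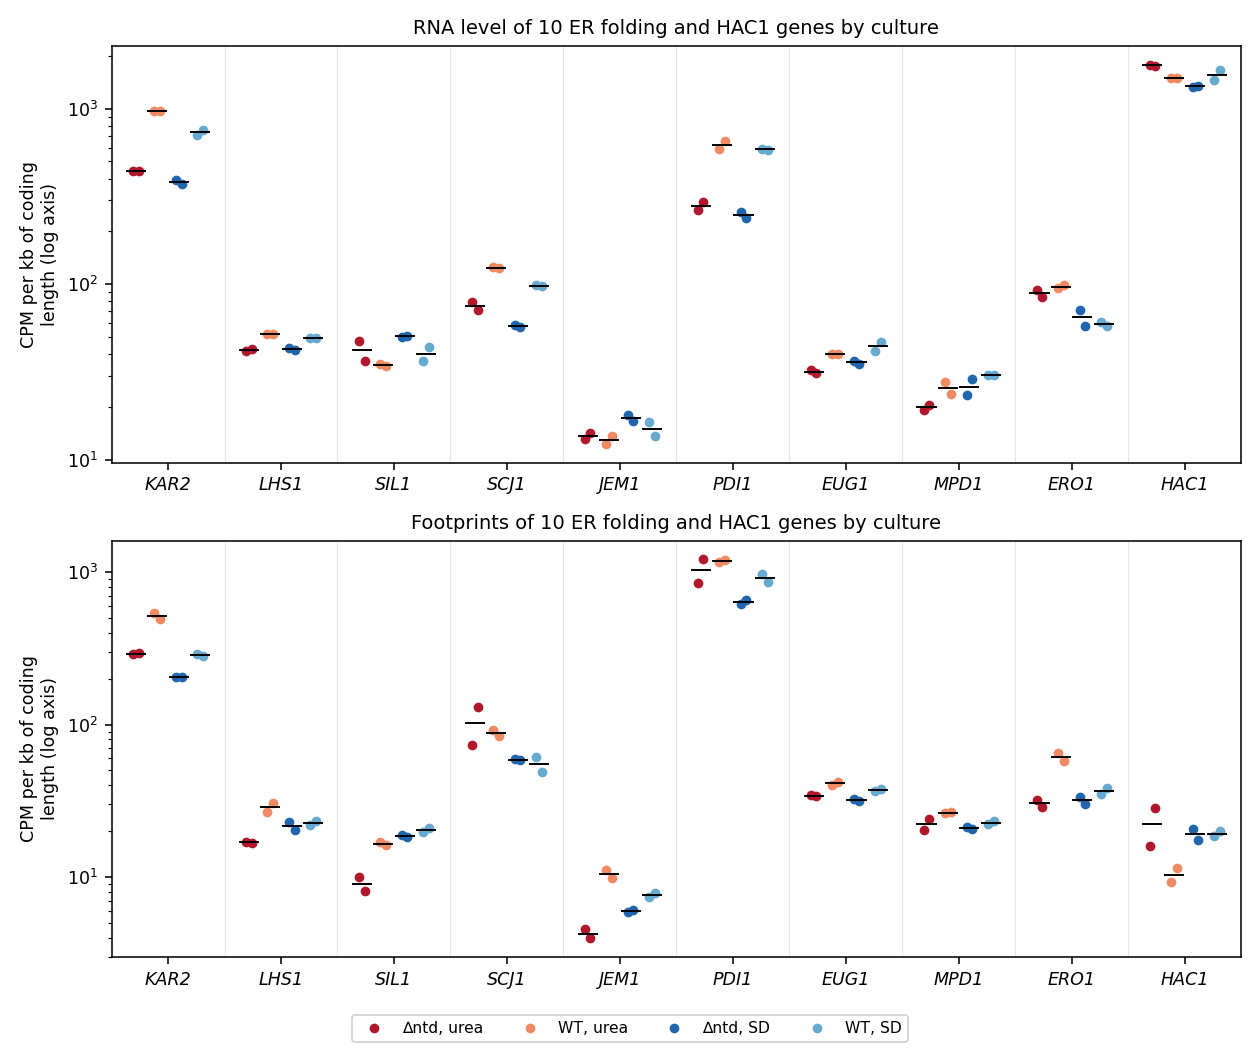
RNA level (top) and footprints (bottom) of the 10 genes in each culture, in CPM per kb of coding length on a log axis. Points are cultures, 2 in each group, and bars are group means. KAR2, PDI1 and SCJ1 RNA lies lower in both ∆ntd groups than in both WT groups, and HAC1 is near the top in RNA and near the bottom in footprints.

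The first question was how the 10 genes respond to urea in each strain. Urea raised the RNA of KAR2, ERO1 and SCJ1 in both strains, by 0.20 to 0.71 on the log2 scale. With libraries scaled by their totals, the rises of KAR2 in ∆ntd (0.13, adjusted p 0.0954) and SCJ1 in WT (0.22, adjusted p 0.0591) were not called. HAC1 RNA was at 1.32 times its level without urea in ∆ntd, and at 0.963 times its level without urea in WT, where the change was not called. Footprints of KAR2 also rose in both strains. The other footprint changes called were PDI1 and SCJ1 higher and SIL1 lower in ∆ntd, and ERO1 higher in WT. A gene was called when its adjusted p from the edgeR quasi-likelihood test was under 0.05, with adjustment over all genes tested.

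For RNA level, 4 of the 10 genes were higher and 0 lower with urea in ∆ntd, where 13.4% of all 5486 genes tested were higher and 12.8% lower. In WT, 3 were higher and 0 lower, against 16.1% and 12.4% of all genes. The median change of the 10 genes was 0.07 in ∆ntd and 0.0095 in WT, beside -0.0043 and 0.0033 over all genes. For footprints, 3 were higher and 1 lower in ∆ntd, where 16.9% of 5286 genes were higher and 11.5% lower, and 2 were higher and 0 lower in WT, against 4.73% and 4.48%. The median footprint change was 0.08 in ∆ntd and 0.36 in WT, beside 0.0082 and -0.011 over all genes. Under library totals the footprint changes with urea in ∆ntd were 0.068 for KAR2, 0.24 for PDI1 and 0.32 for SCJ1, none of them called, and ERO1, LHS1, SIL1 and JEM1 were lower. Translation efficiency (TE) is the footprint CPM divided by the RNA CPM of the same culture, and its change is the footprint change minus the RNA change. In ∆ntd 0 of the 10 genes had a higher TE with urea and 1 (SIL1) had a lower one, against 7.29% and 4.27% of 5251 genes. In WT no member was called in either direction in edgeR, where 0.114% of all genes were higher and 0.019% lower and 532 genes had an unadjusted p under 0.05. DESeq2 called 1 member there, KAR2, with a higher TE. The median TE change of the members was 0.07 in ∆ntd and 0.29 in WT, beside 0.036 and -0.019 over all genes.

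The difference between the responses of the 2 strains was then tested directly. HAC1 RNA was the 1 member with a larger RNA response in ∆ntd than in WT (difference 0.45 ± 0.09, log2 and SE), and 0 were smaller, against 4.39% of all genes larger and 6.07% smaller. For footprints 0 members had a larger response in ∆ntd and 3 had a smaller one, against 4.92% and 3.44% of all genes. These were ERO1, LHS1 and JEM1. For TE no member differed between the strains in either direction in edgeR, where 0.267% of genes were larger in ∆ntd and 0.343% smaller and 963 genes had an unadjusted p under 0.05. DESeq2 also called no member there. The median difference of the members was -0.07 in RNA, -0.25 in footprints and -0.10 in TE, beside -0.0088, 0.036 and 0.056 over all genes. All 3 footprint differences were lost with a replicate block (adjusted p 0.0589 to 0.0817) and when any 1 of the 6 cultures other than ∆ntd urea was left out (adjusted p between 0.107 and 0.207).

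**Figure D2:**
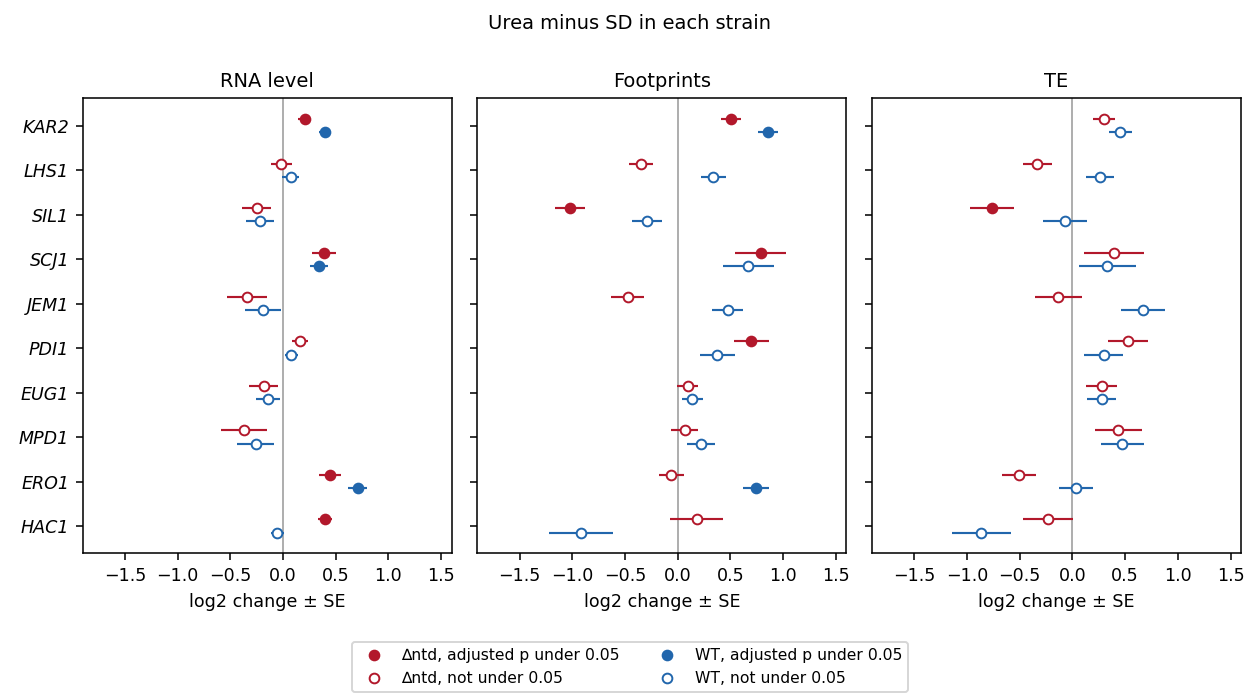
Log2 change with urea relative to SD for each gene, in ∆ntd (red) and WT (blue), for RNA level, footprints and TE. Points are edgeR estimates with their SE from 2 cultures in each group, and filled points have an adjusted p under 0.05. KAR2, SCJ1 and ERO1 RNA are filled in both strains, and SIL1 is the one filled TE value, at -0.76 in ∆ntd.

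The second question was what loss of the eIF4B N-terminal domain does to these genes in each medium. The RNA of KAR2, PDI1 and SCJ1 was lower in ∆ntd than in WT both with and without urea, with KAR2 at 0.458 and PDI1 at 0.448 times the WT level in urea. In urea ERO1, SIL1 and JEM1 had 0.499, 0.551 and 0.405 times the WT footprints with no difference in RNA called, and LHS1 fell by 0.75 in footprints and fell by 0.30 in RNA on the log2 scale. HAC1 went the other way, with more RNA and more footprints in ∆ntd than in WT in urea. The HAC1 footprint call was lost in some other settings, given below. The urea and SD comparisons contrast different libraries, but each shares libraries with the urea comparisons above. All were tested with a spread pooled over all groups, so none of these tests is independent of the others.

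In urea 1 member was higher and 5 were lower in RNA level in ∆ntd, where 21.5% of all genes were higher and 22.4% lower. In SD 0 were higher and 4 lower, against 17.5% and 19.3%. The median RNA change of the 10 genes was -0.32 in urea and -0.23 in SD, beside 0.026 and 0.023 over all genes. In footprints 1 was higher and 5 were lower in urea, against 17.9% and 15.1% of all genes, and 0 were higher and 1 lower in SD, against 3.67% and 5.54%. The median footprint change was -0.51 in urea and -0.16 in SD, beside 0.016 and -0.011 over all genes. In TE 2 were higher (PDI1 and SCJ1) and 4 lower (ERO1, LHS1, SIL1 and JEM1) in urea, against 15.1% and 10.2%. In SD 2 were higher (KAR2 and PDI1) and 0 lower, against 3.1% and 3.37%. The median TE change was 0.07 in urea and 0.12 in SD, beside 0.029 and -0.014 over all genes. When libraries were scaled by their totals in place of trimmed means, the median of all genes moved by 0.33 in RNA level, by -0.27 in footprints and by -0.58 in TE between the strains in urea. The members then split as 2 higher and 3 lower in RNA, 0 and 8 in footprints, and 0 and 5 in TE. KAR2, PDI1 and SCJ1 RNA stayed lower in ∆ntd in both media under that scaling.

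**Figure D3:**
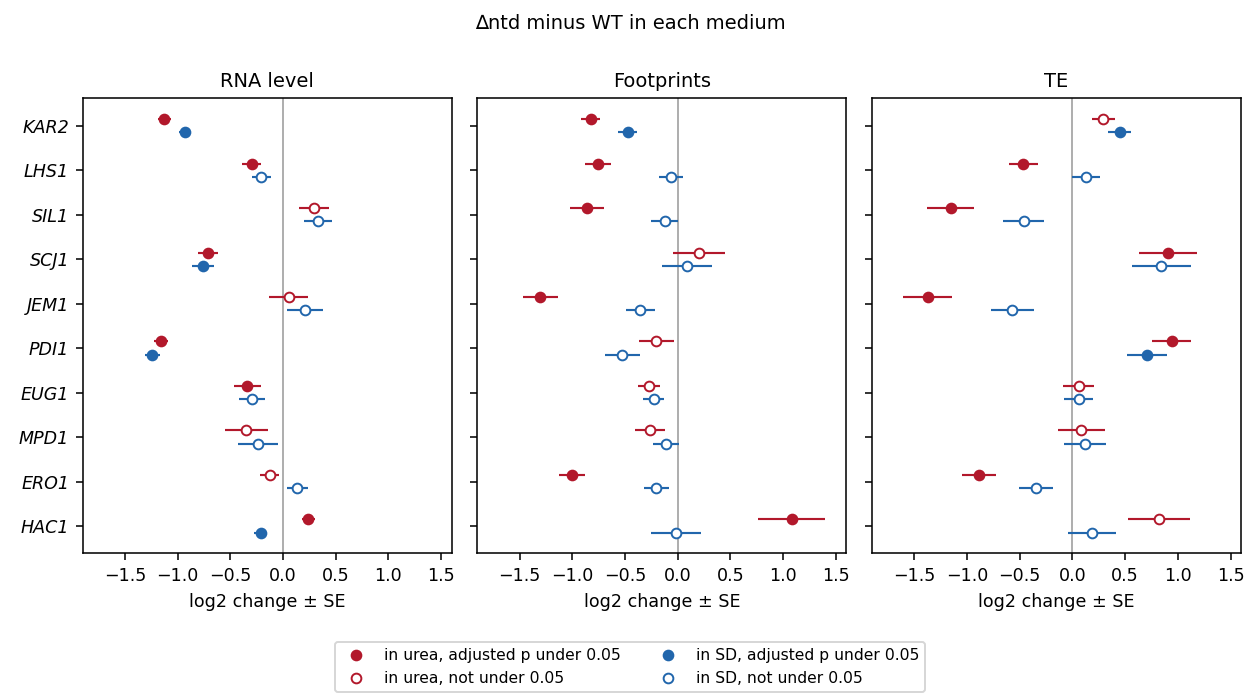
Log2 change in ∆ntd relative to WT for each gene, in urea (red) and in SD (blue), for RNA level, footprints and TE. Points are edgeR estimates with their SE from 2 cultures in each group, and filled points have an adjusted p under 0.05. KAR2 and PDI1 lie furthest left in RNA, JEM1 furthest left in footprints and TE, and HAC1 furthest right in footprints.

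KAR2 (YJL034W, chrX:381327-383375, plus strand, R64) encodes BiP, the Hsp70 of the ER lumen, which binds unfolded chains and keeps Ire1 inactive in unstressed cells. Its RNA was at 908 and 905 CPM in ∆ntd urea cultures, 1986 and 1973 in WT urea cultures, 806 and 767 in ∆ntd SD cultures and 1457 and 1545 in WT SD cultures. No group overlapped another, and both ∆ntd groups lay below both WT groups. The strain difference was -1.13 ± 0.06 in urea (adjusted p 1.69e-16) and -0.93 ± 0.06 in SD (adjusted p 5.02e-14), while urea added 0.20 ± 0.06 in ∆ntd (adjusted p 0.0135) and 0.40 ± 0.06 in WT (adjusted p 1.68e-06). The urea response in ∆ntd minus that in WT was -0.20 ± 0.08 and was not called (adjusted p 0.15).

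KAR2 footprints were at 590.9 and 602.5 CPM in ∆ntd urea cultures, 1099 and 1016 in WT urea cultures, 420.4 and 420.3 in ∆ntd SD cultures and 591.9 and 577 in WT SD cultures. The ∆ntd urea and WT SD ranges overlapped, between the high WT urea and the low ∆ntd SD values. TE was 0.651 and 0.666 in ∆ntd urea cultures, 0.553 and 0.515 in WT urea cultures, 0.521 and 0.548 in ∆ntd SD cultures, and 0.406 and 0.373 in WT SD cultures. It was higher in ∆ntd by 0.45 ± 0.11 in SD (adjusted p 0.0232) and by 0.29 ± 0.11 in urea (adjusted p 0.0584). In footprints the strain difference of KAR2 was -0.83 ± 0.09 in urea and -0.48 ± 0.09 in SD. KAR2 footprints rose with urea by 0.51 ± 0.09 in ∆ntd (adjusted p 0.00814) and by 0.86 ± 0.09 in WT (adjusted p 0.00145). The ∆ntd rise was not called with only the groups compared (adjusted p 0.0976). The TE response in WT was 0.46 ± 0.11, not called as reported (adjusted p 0.127). It was called with only the groups compared (adjusted p 0.000495), limma voom (0.00204) and DESeq2 (0.00689). The RNA response of KAR2 to urea in ∆ntd was not called without ∆ntd SD culture 2 (adjusted p 0.07), and its footprint response there was not called without either ∆ntd SD culture (adjusted p 0.0827 to 0.0841). The calls in SD for footprints and TE were each lost without any 1 of the 6 cultures other than ∆ntd urea (adjusted p 0.0576 to 0.207 and 0.0575 to 0.318), and the TE call was lost with culture as a replicate block (adjusted p 0.065). Under library totals KAR2 TE in ∆ntd relative to WT was -0.29 in urea and 0.22 in SD (adjusted p 0.247 in SD), while DESeq2 called the urea value (0.28, adjusted p 0.0442).

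KAR2 carries a match to CAGNGTG, and its promoter is shown because this gene is the standard reporter of the response. LHS1 holds the same motif, and ERO1 and SIL1 hold TACGTG. Both are short forms of the unfolded protein response element. They were searched on both strands within 500 nt before the start codon, and the capitals mark the match, written on the strand of the gene, so that CACGCTG and CACGTA are the motifs on the other strand. Sequences are from the RefSeq copy of the R64 genome, at chrX:381157-381184 (plus) for KAR2, chrXI:296321-296348 (plus) for LHS1, chrXIII:13296-13323 (minus) for ERO1 and chrXV:267614-267641 (minus) for SIL1.
KAR2: aggaactggaCAGCGTGtcgaaaaagtt
LHS1: taatatcgaaCACGCTGttataaaagtg
ERO1: cgatacggagTACGTGtcataaaaactt
SIL1: gtgaaaaggcCACGTAaatgatagagca
CAGNGTG was found for 2 of the 10 genes, 160 nt before the start codon in KAR2 and 99 nt in LHS1, and in 10.2% of the windows of 6006 genes. TACGTG was found for 4 of the 10 (EUG1, MPD1, ERO1 and SIL1) and in 13.1% of windows. PDI1, SCJ1, JEM1 and HAC1 held neither string in this window, and no member held both. The genes with TACGTG did not move as one: with urea in WT, ERO1 RNA rose by 0.71 while EUG1, MPD1 and SIL1 were at -0.14, -0.26 and -0.22 and were not called.

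LHS1 (YKL073W, chrXI:296430-299075, plus strand) and SIL1 (YOL031C, chrXV:266264-267529, minus strand) encode the proteins that exchange ADP for ATP on Kar2. LHS1 RNA was at 111 and 114 CPM in ∆ntd urea cultures, 137.5 and 137.7 in WT urea cultures, 114 and 112 in ∆ntd SD cultures, and 131.0 and 130.6 in WT SD cultures. Both ∆ntd groups lay below both WT groups, and the difference passed the test in urea (-0.30 ± 0.09, adjusted p 0.00777) and not in SD (-0.21 ± 0.09, adjusted p 0.0713). LHS1 footprints were at 45.2 and 44.5 CPM in ∆ntd urea cultures, 71.0 and 80.8 in WT urea cultures, 60.7 and 53.6 in ∆ntd SD cultures, and 58.2 and 61.6 in WT SD cultures. The 2 strains overlapped in SD and were apart in urea, by -0.75 ± 0.12 (adjusted p 0.00297). The response to urea was -0.35 ± 0.12 in ∆ntd and 0.34 ± 0.12 in WT, neither called on its own as reported, and their difference was -0.69 ± 0.17 (adjusted p 0.0459). The WT response was called with only the groups compared (adjusted p 0.00934) and with limma voom (0.02). Limma voom did not call the difference between the responses (adjusted p 0.0847). Library totals called the ∆ntd response (-0.78, adjusted p 0.00556). TE in urea was -0.46 ± 0.14 in ∆ntd relative to WT (adjusted p 0.0251). The RNA call was lost without ∆ntd urea culture 1 (adjusted p 0.0823), in DESeq2 (adjusted p 0.0537) and under library totals, where the value was 0.03. The TE call was lost without any 1 of the 4 WT cultures (adjusted p 0.0531 to 0.169), with only the groups compared (0.104) and with limma voom (0.235), and its value was -1.04 under library totals.

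SIL1 footprints were at 12.6 and 10.2 CPM in ∆ntd urea cultures, 21.5 and 20.4 in WT urea cultures, 23.8 and 23.3 in ∆ntd SD cultures, and 24.8 and 26.5 in WT SD cultures. The ∆ntd cultures in urea were far below all the others. The counts behind the 2 lowest values were 118 and 56. SIL1 was the member with the largest footprint loss with urea in ∆ntd, -1.02 ± 0.14 (adjusted p 0.00309), where WT changed by -0.29 ± 0.14 (adjusted p 0.278). The difference between these responses did not pass the test (-0.73 ± 0.20, adjusted p 0.0633). Its RNA was at 60.0 and 46.3 CPM in ∆ntd urea cultures, 44.5 and 43.1 in WT urea cultures, 63.6 and 64.16 in ∆ntd SD cultures, and 46.4 and 55.3 in WT SD cultures, with no RNA comparison called as reported. The strain difference in SD was 0.33 (adjusted p 0.0539). It was called under library totals (adjusted p 0.000401), without the filter (0.0423), with only the groups compared (0.0456) and with limma voom (0.0438). Library totals also called SIL1 RNA in urea (0.62, adjusted p 0.000512). SIL1 TE was 0.211 and 0.221 in ∆ntd urea cultures, 0.483 and 0.474 in WT urea cultures, 0.374 and 0.363 in ∆ntd SD cultures, and 0.534 and 0.48 in WT SD cultures. The TE difference between strains in urea was -1.15 ± 0.22 (adjusted p 0.00207). The TE response in ∆ntd (-0.76 ± 0.21, adjusted p 0.0336) was lost without any 1 of the 6 cultures other than ∆ntd urea (adjusted p 0.0608 to 0.212), and the footprint difference in urea was lost without WT urea culture 1 (adjusted p 0.0512). With limma voom neither strain difference in urea was called (adjusted p 0.0776 in footprints and 0.0603 in TE).

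SCJ1 (YMR214W, chrXIII:695350-696483, plus strand) and JEM1 (YJL073W, chrX:303181-305118, plus strand) encode J-proteins, which stimulate the ATPase of Kar2, SCJ1 in folding in the lumen and JEM1 also in nuclear fusion during mating. SCJ1 RNA was at 90.0 and 81.3 CPM in ∆ntd urea cultures, 142 and 140 in WT urea cultures, 66.5 and 64.6 in ∆ntd SD cultures and 112 and 111 in WT SD cultures. As with KAR2, both ∆ntd groups lay below both WT groups, and the strain difference was -0.71 ± 0.10 in urea (adjusted p 3.24e-07) and -0.76 ± 0.11 in SD (adjusted p 5.96e-07). Urea added 0.39 ± 0.12 in ∆ntd (adjusted p 0.0116) and 0.34 ± 0.09 in WT (adjusted p 0.00342). SCJ1 footprints were at 83.8 and 147.8 CPM in ∆ntd urea cultures, 104 and 95.6 in WT urea cultures, 67.4 and 66.1 in ∆ntd SD cultures, and 69.8 and 55.8 in WT SD cultures. The ∆ntd urea replicates lay on either side of the WT urea replicates. SCJ1 TE was 0.931 and 1.82 in ∆ntd urea cultures and 0.732 and 0.683 in WT urea cultures. In SD it was 1.01 and 1.02 in ∆ntd and 0.622 and 0.504 in WT. The SD difference of 0.84 ± 0.28 was not called as reported (adjusted p 0.1). It was called with only the groups compared (adjusted p 1.59e-05) and with limma voom (0.000143). The corresponding difference in urea was not called with only the groups compared (adjusted p 0.102) or under library totals (0.29). The TE difference between strains in urea, 0.91 ± 0.28 (adjusted p 0.029), depended on ∆ntd urea culture 2, without which it was 0.36 (adjusted p 0.124). It was also lost without either WT urea culture or either ∆ntd SD culture (adjusted p up to 0.158). The footprint response in ∆ntd was 0.79 ± 0.24 (adjusted p 0.0433), was 0.33 without ∆ntd urea culture 2, and was not called without any 1 of the 6 cultures of the other groups (adjusted p 0.0677 to 0.183) nor with a replicate block (adjusted p 0.0617). The RNA response in ∆ntd was not called without ∆ntd SD culture 2 or ∆ntd urea culture 1 (adjusted p 0.0517 to 0.128), and in DESeq2 neither RNA response was (adjusted p 0.0663 in ∆ntd and 0.0527 in WT).

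JEM1, the lowest member per kb in WT SD, had RNA at 25.5 and 27.6 CPM in ∆ntd urea cultures, 23.9 and 26.6 in WT urea cultures, 34.9 and 32.1 in ∆ntd SD cultures, and 31.8 and 26.3 in WT SD cultures. No RNA comparison was called as reported, while under library totals JEM1 RNA was higher in ∆ntd in SD (0.49, adjusted p 0.0188). Its footprints were at 8.78 and 7.66 CPM in ∆ntd urea cultures, 21.7 and 19.1 in WT urea cultures, 11.4 and 11.7 in ∆ntd SD cultures, and 14.4 and 15.2 in WT SD cultures. With urea the 2 strains moved to opposite ends, ∆ntd lowest and WT highest. The strain difference in urea was -1.31 ± 0.17 in footprints (adjusted p 0.00109) and -1.37 ± 0.23 in TE (adjusted p 0.000829). The lowest library held 42 JEM1 footprints. The response to urea was -0.48 ± 0.16 in ∆ntd and 0.48 ± 0.15 in WT (adjusted p 0.0551 and 0.0916), and their difference was -0.95 ± 0.22 (adjusted p 0.04). The WT response was called with only the groups compared (adjusted p 0.0179) and with limma voom (0.0117). Limma voom did not call the difference between the responses (adjusted p 0.119). Library totals called the ∆ntd response (-0.90, adjusted p 0.0104).

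PDI1 (YCL043C, chrIII:48653-50221, minus strand), EUG1 (YDR518W, chrIV:1478608-1480161, plus strand) and MPD1 (YOR288C, chrXV:852121-853077, minus strand) encode the isomerase that introduces disulfide bonds and 2 of its relatives. PDI1 RNA was at 414 and 461 CPM in ∆ntd urea cultures, 920 and 1024 in WT urea cultures, 405 and 374 in ∆ntd SD cultures and 925 and 918 in WT SD cultures. The groups split by strain and not by medium. The strain difference was -1.16 ± 0.07 in urea (adjusted p 3.58e-15) and -1.24 ± 0.07 in SD (adjusted p 2.09e-15), and urea changed PDI1 RNA by 0.16 ± 0.07 in ∆ntd and by 0.08 ± 0.06 in WT, neither called. PDI1 footprints were at 1333 and 1902 CPM in ∆ntd urea cultures, 1840 and 1884 in WT urea cultures, 971 and 1023 in ∆ntd SD cultures and 1523 and 1349 in WT SD cultures. In urea the ∆ntd replicates spanned both WT replicates, and the difference of -0.20 ± 0.16 was not called (adjusted p 0.372).

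PDI1 TE was 3.22 and 4.13 in ∆ntd urea cultures, 2.0 and 1.84 in WT urea cultures, 2.4 and 2.74 in ∆ntd SD cultures, and 1.65 and 1.47 in WT SD cultures. Every ∆ntd culture was above every WT culture, and the strain difference was 0.94 ± 0.19 in urea (adjusted p 0.00252) and 0.71 ± 0.19 in SD (adjusted p 0.0396). PDI1 stood above 98.7% of genes in TE in ∆ntd urea cultures, 98.4% in WT urea cultures, 99.3% in ∆ntd SD cultures and 96.8% in WT SD cultures. The TE difference in SD was lost without any 1 of the 6 cultures other than ∆ntd urea (adjusted p 0.0889 to 0.348), and that in urea was 0.33 under library totals (adjusted p 0.0523). PDI1 footprints rose with urea in ∆ntd by 0.70 ± 0.17 (adjusted p 0.0191), by 0.42 without ∆ntd urea culture 2, and were not called without either ∆ntd SD culture (adjusted p 0.106 to 0.132).

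EUG1, a nonessential relative of PDI1, had RNA at 50.1 and 48.3 CPM in ∆ntd urea cultures, 62.0 and 62.5 in WT urea cultures, 57.1 and 54.5 in ∆ntd SD cultures, and 64.5 and 73.0 in WT SD cultures. The strain difference in urea was -0.34 ± 0.13 (adjusted p 0.031), was lost when any 1 of the 4 urea cultures was left out (adjusted p 0.0716 to 0.135) or in DESeq2 (adjusted p 0.139), and was -0.013 under library totals. EUG1 TE ranged over the 8 cultures between 0.807 and 1.09 and MPD1 TE between 0.723 and 1.16, with no TE comparison called for either. MPD1 RNA ranged between 18.5 and 29.2 CPM and its footprints between 19.6 and 25.4 CPM, and none of its 15 comparisons was called. Both genes had a TE above that of the median gene (0.568 to 0.588) in every culture.

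**Figure D4:**
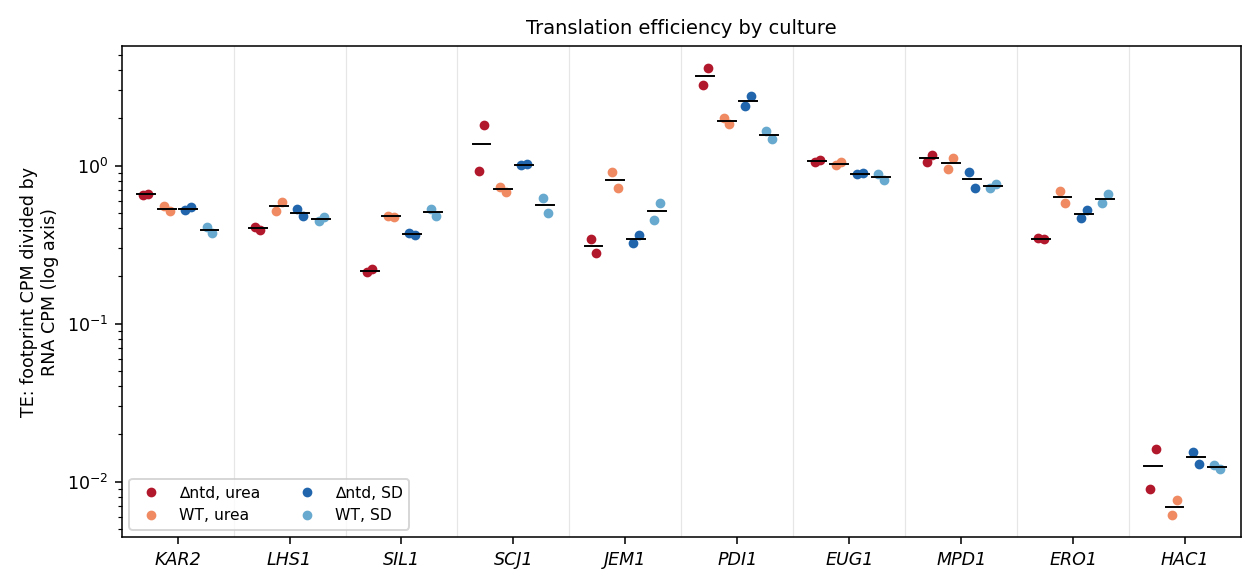
TE of the 10 genes in each culture, as footprint CPM divided by RNA CPM on a log axis. Points are cultures, 2 in each group, and bars are group means. PDI1 lies highest, between 1.47 and 4.13, HAC1 lies lowest, between 0.00615 and 0.0161, and the red ∆ntd urea points of ERO1, SIL1 and LHS1 are the lowest of their genes.

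ERO1 (YML130C, chrXIII:11483-13174, minus strand) encodes the oxidase that passes electrons from Pdi1 to oxygen and so keeps disulfide formation going. Its RNA was at 157 and 143 CPM in ∆ntd urea cultures, 160 and 168 in WT urea cultures, 121 and 98.1 in ∆ntd SD cultures and 103 and 98.3 in WT SD cultures. ERO1 had the largest RNA rise with urea among the members in both strains, 0.44 ± 0.10 in ∆ntd (adjusted p 0.00115) and 0.71 ± 0.09 in WT (adjusted p 2.81e-07), and its strain difference was not called in either medium (-0.13 ± 0.09 in urea and 0.14 ± 0.10 in SD). Under library totals ERO1 RNA was called higher in ∆ntd in SD (0.42, adjusted p 0.00113). Its footprints were at 54.3 and 48.9 CPM in ∆ntd urea cultures, 110 and 97.3 in WT urea cultures, 56.6 and 51.3 in ∆ntd SD cultures, and 59.5 and 64.6 in WT SD cultures. The WT urea cultures stood above the other 3 groups, which were close together. The footprint response was -0.06 ± 0.12 in ∆ntd (adjusted p 0.732) and 0.74 ± 0.12 in WT (adjusted p 0.00769), and the difference was -0.80 ± 0.17 (adjusted p 0.0333). ERO1 TE was 0.346 and 0.342 in ∆ntd urea cultures and 0.686 and 0.58 in WT urea cultures, a difference of -0.88 ± 0.16 (adjusted p 0.00145). The TE response to urea was not called in either strain (adjusted p 0.059 in ∆ntd and 0.969 in WT), and its difference between strains, -0.54 ± 0.23, was not called (adjusted p 0.225). The footprint response in WT was not called without either WT SD culture or WT urea culture 1 (adjusted p 0.0666 to 0.103).

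The protein ends differ between the members, as translated from the R64 reading frames. KAR2, PDI1, EUG1, MPD1 and LHS1 end in HDEL and SCJ1 in KDEL, signals by which escaped ER proteins are recognised and returned from the Golgi, and the other 4 end in neither. A C-x-x-C pair, the form of the redox-active cysteines, occurs 2 times in PDI1, 1 time in MPD1, 2 times in ERO1 and 0 times in EUG1. It also occurs 4 times in SCJ1, and J-proteins of its type use such pairs to bind zinc. The last codons of KAR2 (chrX:383352-383375, plus) and SCJ1 (chrXIII:696460-696483, plus) are shown as the 2 versions of the signal, with its 4 codons in capitals.
KAR2: tatttcgaaCACGACGAATTGtag
SCJ1: aatatgctcAAAGATGAGTTGtag
The 5 genes ending in HDEL did not share a pattern of change. The log2 TE difference of ∆ntd from WT in urea was 0.94 in PDI1, 0.29 in KAR2, 0.06 in EUG1, 0.08 in MPD1 and -0.46 in LHS1.

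HAC1 (YFL031W, chrVI:75179-76147, plus strand) has coding exons of 661 and 56 nt around an intron of 252 nt (chrVI:75840-76091). The junctions cut by Ire1 are shown with exon bases in capitals, at chrVI:75825-75854 for the 5′ end and chrVI:76077-76106 for the 3′ end of the intron. They are followed by the longest stretch of the intron that can pair with the 100 nt before the start codon, 11 nt in capitals, at chrVI:75143-75161 in the leader and chrVI:75940-75958 in the intron. All are on the plus strand. These sequences are what a count per gene cannot resolve: the 661 nt exon is shared by both forms, and the intron and the pairing are present in the unspliced form alone.
HAC1 5′ junction: ATTGGCGTAATCCAGccgtgattacgatga
HAC1 3′ junction: tgcttgtactgtccgAAGCGCAGTCAGGTT
HAC1 leader: cctcCTCCTCCCCCAccta
HAC1 intron: ctgaTGGGGGAGGAGccgg
HAC1 RNA was at 1272 and 1262 CPM in ∆ntd urea cultures, 1074 and 1070 in WT urea cultures, 957 and 967 in ∆ntd SD cultures and 1044 and 1182 in WT SD cultures. ∆ntd was highest with urea and lowest without it, with both WT groups between. Urea changed it by 0.40 ± 0.06 in ∆ntd (adjusted p 1.04e-05) and by -0.05 ± 0.06 in WT (adjusted p 0.555), and the difference of 0.45 ± 0.09 passed the test (adjusted p 0.000654). The strain difference was 0.24 ± 0.06 in urea (adjusted p 0.00194) and -0.21 ± 0.06 in SD (adjusted p 0.0082). The last value was -0.12 without WT SD culture 2 (adjusted p 0.263) and 0.07 under library totals.

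HAC1 footprints were few in every library. They were at 11.5 and 20.3 CPM in ∆ntd urea cultures, 6.61 and 8.24 in WT urea cultures, 14.8 and 12.6 in ∆ntd SD cultures, and 13.3 and 14.3 in WT SD cultures, and the WT urea libraries held 32 and 25 counts. WT urea was the lowest group and overlapped no other. Footprints in urea were at 2.11 times the WT level in ∆ntd (log2 1.08 ± 0.32, adjusted p 0.0332). This call was lost under library totals (adjusted p 0.0517), with only the groups compared (0.097) and with limma voom (0.0788). The urea response was 0.18 ± 0.25 in ∆ntd and -0.92 ± 0.31 in WT (adjusted p 0.62 and 0.11). HAC1 TE was 0.00901 and 0.0161 in ∆ntd urea cultures, 0.00615 and 0.0077 in WT urea cultures, 0.0155 and 0.013 in ∆ntd SD cultures, and 0.0127 and 0.0121 in WT SD cultures. By group mean it ranked 27th from the lowest of 5248 genes in ∆ntd urea cultures, 9th of 5251 in WT urea cultures, 16th of 5249 in ∆ntd SD cultures and 13th of 5250 in WT SD cultures. No TE comparison of HAC1 was called as reported. The difference between strains in urea was 0.82 ± 0.29 (adjusted p 0.053, and 0.0329 in DESeq2, which called it), and the response to urea in WT was -0.87 ± 0.28 (adjusted p 0.287). Other settings did call the WT response of HAC1, at adjusted p 0.00574 in TE and 0.00117 in footprints with only the groups compared, 0.0318 and 0.00476 with limma voom, and 0.0483 in footprints under library totals. Library totals also called HAC1 TE with urea in ∆ntd, at -0.60 (adjusted p 0.0467). The footprint difference in urea was 0.65 without ∆ntd urea culture 2 and was not called without any 1 of the 6 cultures of the other groups (adjusted p 0.0547 to 0.214).

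The members also differed in which other genes their patterns resembled. Over the 8 RNAseq libraries and 5251 genes, the log2 CPM of KAR2 was most like that of HSC82 (Pearson's r 0.999), which encodes a cytosolic Hsp90, the histidine synthesis gene HIS4 (0.9985), the cytosolic Hsp70 gene SSA2 (0.9979), HOM2 (0.9973), for an enzyme of methionine and threonine synthesis, and ADE3 (0.9964), for an enzyme of folate metabolism. LHS1, SCJ1 and PDI1 ranked 86th, 110th and 137th by the same measure with r of 0.978, 0.974 and 0.969, HAC1 had an r of 0.0531 and SIL1 one of -0.772. For HAC1, the 5 genes most like it in log2 TE over the 8 cultures were MRPL24 (r 0.9459), for a mitochondrial ribosomal protein, the thiamine synthesis gene THI4 (0.9444), BUD27 (0.9333), the nucleolar protein gene NSR1 (0.9295) and the chaperonin gene CCT5 (0.9222). These are descriptions over 8 points that share 4 groups, and carry no test.

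Among the other genes of the pathway, the UPR signalling list (IRE1, TRL1, PTC2 and ULI1) was tested for 4 genes in RNA and 3 in footprints. With urea, 0 of the 4 were called in RNA in ∆ntd and 1 was lower in WT (PTC2), where 12.4% of all genes were lower. Between the strains in urea, 1 was higher and 1 lower in RNA, against 21.5% and 22.4% of all genes. Of the 3 tested in footprints, 2 were higher and 0 lower, against 17.9% and 15.1%. In TE 1 was higher and 0 were lower, against 15.1% and 10.2%. Between the strains in urea, RNA of the sensor gene IRE1 was higher in ∆ntd by 0.42 ± 0.10 (adjusted p 0.00151) and its footprints by 0.82 ± 0.14 (adjusted p 0.00427). The IRE1 TE difference there was 0.39 on the log2 scale and was not called (adjusted p 0.102). RNA of PTC2, for a phosphatase that acts on Ire1, was -0.67 ± 0.09 in ∆ntd relative to WT (adjusted p 3.76e-07), with TE higher by 1.62 ± 0.30 (adjusted p 0.00156). PTC2 footprints were higher by 0.96 ± 0.26 (adjusted p 0.0263). In SD, IRE1 footprints were higher in ∆ntd by 0.88 ± 0.13 (adjusted p 0.00728). It was the 1 of the 3 called there in footprints, against 3.67% of all genes higher and 5.54% lower. IRE1 TE was also higher in ∆ntd in SD, by 0.77 ± 0.15 (adjusted p 0.0086). Its RNA was not called there (0.09, adjusted p 0.526). In TE it was again the 1 of the 3 called, against 3.1% of all genes higher and 3.37% lower.

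Of 14 other ER folding factors, 0 rose and 3 fell in RNA with urea in ∆ntd, against 13.4% and 12.8% of all genes, and 2 rose and 2 fell in WT, against 16.1% and 12.4%. Between the strains in urea, 0 were higher and 5 lower in RNA, against 21.5% and 22.4% of all genes. In both footprints and TE 3 were higher and 2 lower, against 17.9% and 15.1% in footprints and 15.1% and 10.2% in TE. The glucosidase I gene CWH41, which starts trimming of N-glycans, fell in ∆ntd in footprints by 1.02 ± 0.12 (adjusted p 0.000792), and footprints of the ER thiol oxidase gene ERV2 were higher by 1.35 ± 0.25 (adjusted p 0.00534). Of 15 genes of ER-associated degradation, which returns misfolded proteins to the cytosol for destruction, 0 rose and 3 fell in RNA with urea in ∆ntd, and 3 rose and 0 fell in WT, beside the same shares of all genes. Between the strains in urea, 1 was higher and 9 lower in RNA, with a list median of -0.36, and 5 were higher and 0 lower in TE, with a list median of 0.49, where the medians of all genes were 0.026 and 0.029 and the shares called were 21.5% and 22.4% in RNA and 15.1% and 10.2% in TE. In footprints 1 was higher and 2 were lower, against 17.9% and 15.1% of all genes. The footprint median of the list was -0.056, beside 0.016 over all genes. CDC48, the ATPase that extracts these proteins, fell in RNA by 1.01 ± 0.06 (adjusted p 8.77e-16), and UFD1, for a cofactor of Cdc48, fell in RNA by 1.00 ± 0.16 (adjusted p 5.52e-06) and was higher in TE by 1.30 ± 0.37 (adjusted p 0.0198).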

How the data were processed

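RNAseq and Riboseq were measured in 8 cultures (16 libraries). The authors trimmed linkers with cutadapt (1.1 in the submitters' processing notes), removed reads on non-coding RNAs and aligned the rest to the yeast transcriptome with Bowtie on the sacCer3 build, and deposited counts of uniquely mapped reads per gene, without normalization. The mismatches allowed, any read length filter and the part of the transcript counted are not given in the sources used here. Fold changes and false discovery rates from the authors' own comparisons stand in the same table and were not used. The 28 nt windows of each member's coding sequence were checked, and 0.0% occur in another gene.

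Tests ran in edgeR 4.0.16, with DESeq2 1.42.0 and limma 3.58.1 for alternatives (R 4.3.3), and levels were computed in Python 3.11.15 (pandas 2.3.3, numpy 2.4.6). Low counts were removed by filterByExpr in each assay separately (5486 in RNAseq, 5286 in Riboseq, 5251 in both), scaled by TMM within each assay and fitted with a mean per group (glmQLFit and glmQLFTest). TE was fitted over all 16 libraries as the footprint change minus the RNA change. P-values were adjusted by Benjamini-Hochberg over all genes tested, with a threshold of 0.05 and a prior count of 0.125, and SEs were derived from the fold change and the F statistic. The fits were tested on simulated data. Alternatives were RLE scaling, library totals, no filter, only the groups compared, DESeq2, limma voom with a variance for each group, replicate blocks and leaving out each culture.

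The labels number the 2 libraries of a group and assay as replicates, which the methods call biological, so p-values rest on the spread between cultures of a group. All groups were fitted together, so this spread was pooled over them, and a test also drew on groups outside its comparison. Replicate numbers do not pair groups (correlations of same-numbered deviations were -0.358 to 0.0631 over all pairs of groups and -0.0383 to 0.0631 in those compared directly). The 2 libraries of a culture come from 1 extract, but the reported TE values were fitted without a block. Culture was used as a block for TE only as an alternative. The members and lists were chosen with earlier results of these data known. All members are named. Other genes are named if called, at most 3 with the largest change for a list and comparison. Genes most alike were ranked on log2(CPM + 1) for RNA and with 0.5 CPM added for TE. Sequences are from the RefSeq copy of R64, and 6008 of the table's gene names were found in it.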

Additional observations from a re-analysis of the deposited data

Results flagged for a closer look

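For 4 values the response to urea differed between the strains by a test of the difference itself in edgeR. HAC1 RNA responded more in ∆ntd, by 0.45 on the log2 scale, and this call held in every alternative run, with adjusted p between 3.57e-05 and 0.0257 and the highest of these without WT SD culture 2. The footprint response was smaller in ∆ntd than in WT for ERO1 (-0.80), LHS1 (-0.69) and JEM1 (-0.95). Of these, LHS1 and JEM1 were not called with limma voom (adjusted p 0.0847 and 0.119). Of the 8 cultures left out in turn, those 3 calls were lost without each of the 6 other than ∆ntd urea (adjusted p 0.107 to 0.207) and held without either ∆ntd urea culture. In the ∆ntd urea group, ERO1, LHS1 and JEM1 footprints of the 2 cultures lay close together (54.3 and 48.9, 45.2 and 44.5, and 8.78 and 7.66 CPM), while over all genes the replicates of this group lay further apart than those of the others.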

How the results depend on the processing

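Of 90 pairs of gene and comparison called under some setting, 43 were called as reported. Of 1365 values from all alternatives, 1119 kept direction and side of the threshold, 116 lost the call, 110 gained one and 20 turned direction. Library totals in place of TMM shift all genes of a comparison together, and turned 9 values. HAC1 RNA between strains in SD became 0.074, LHS1 RNA between strains in urea 0.029, HAC1 footprints with urea in ∆ntd -0.27 and SCJ1 footprints between strains in urea -0.10. The difference between the strains' urea responses in footprints became -0.021 for PDI1 and -0.24 for SCJ1. KAR2 TE became -0.059 with urea in ∆ntd and -0.29 between strains in urea, and EUG1 TE between strains in urea -0.52. The percentage of calls that were higher, as reported and under library totals, was for RNA 51.2 and 34.4 with urea in ∆ntd, 56.4 and 29.9 in WT, 48.9 and 84.2 between strains in urea, 47.6 and 85.5 in SD, and 42.0 and 54.7 for the difference between responses. For footprints it was 59.5 and 13.3 with urea in ∆ntd, 51.3 and 31.8 in WT, 54.3 and 28.3 between strains in urea, and 58.8 and 21.3 for the difference between responses. For TE it was 63.1 and 12.3 with urea in ∆ntd, 85.7 and 66.7 in WT, 59.6 and 9.18 between strains in urea, 47.9 and 14.3 in SD, and 43.8 and 3.55 for the difference between responses, where RLE scaling gave 27.3.

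Called members numbered 2 for footprints between strains in SD, 4 for TE with urea in ∆ntd and 1 for the TE difference between responses under library totals. With only the groups compared they numbered 0 for footprints with urea in ∆ntd, 7 in WT and 4 between strains in SD, and for TE 0 with urea in ∆ntd and 3 in WT. With limma voom they numbered 7 for footprints with urea in WT, 4 between strains in SD and 1 for the difference between responses, and for TE 0 with urea in ∆ntd, 2 in WT and 5 between strains in SD. Under both settings the footprint calls gained with urea in WT were PDI1, LHS1, SCJ1 and JEM1, higher, and HAC1, lower. DESeq2 called 1 member for TE with urea in WT. The replicate block left 0 members for the footprint difference between responses, lost 4 calls in all and gained 0. Culture as a replicate block left 1 for TE between strains in SD and changed no other call.

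Leaving out each culture in turn gave, for RNA, 2 to 4 called members with urea in ∆ntd, 3 to 3 in WT, 4 to 6 between strains in urea, 4 to 6 in SD and 1 to 1 for the difference between responses. The ranges in that order were 1 to 7, 1 to 7, 4 to 7, 0 to 5 and 0 to 8 for footprints and 0 to 5, 0 to 3, 4 to 8, 0 to 4 and 0 to 3 for TE, with each highest count reached without a ∆ntd urea culture. Values that turned direction ranged from -0.14 to 0.038 for HAC1 RNA with urea in WT, from -0.038 to 0.26 for ERO1 RNA between strains in SD, from -0.13 to 0.014 for ERO1 and from -0.24 to 0.58 for HAC1 footprints with urea in ∆ntd, from -0.49 to 0.027 for PDI1 and from -0.27 to 0.55 for SCJ1 footprints between strains in urea, from -0.35 to 0.47 for SCJ1 footprints in the difference between responses, and from -0.65 to 0.18 for HAC1 and from -0.13 to 0.83 for SCJ1 TE with urea in ∆ntd. The cause of these changes was not tested. HAC1 footprints rest on 25 to 244 counts a library, and their differences had SEs of 0.24 to 0.40.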

Other observations

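Chaperones of the cytosol were listed apart from those of the ER. With urea, 7 of the 9 cytosolic heat shock genes rose and 1 fell in RNA in ∆ntd, against 13.4% and 12.8% of all genes, and 5 rose and 2 fell in WT, against 16.1% and 12.4%. The list medians were 0.53 and 0.37. In footprints 8 rose and 0 fell in ∆ntd, against 16.9% and 11.5% of all genes, and 3 rose and 1 fell in WT, against 4.73% and 4.48%. In ∆ntd the largest RNA rises were those of the aggregate sorting factor gene BTN2 (1.06 ± 0.15, adjusted p 1.12e-06), the Hsp90 gene HSP82 (0.81 ± 0.08, adjusted p 1.08e-09) and the disaggregase gene HSP104 (0.64 ± 0.06, adjusted p 1.19e-09). Footprints of the J-protein gene SIS1 rose there by 1.59 ± 0.19 (adjusted p 0.00156). Between the strains in urea, 3 were higher and 4 lower in RNA in ∆ntd, against 21.5% and 22.4% of all genes. The largest were the small heat shock protein gene HSP26 (1.57 ± 0.08, adjusted p 2.35e-17) and BTN2 (1.15 ± 0.14, adjusted p 2.62e-08), both higher, and HSP82. HSP26 RNA fell with urea in both strains (-0.40 in ∆ntd and -1.095 in WT) and was higher in ∆ntd also in SD (0.88). BTN2 footprints in urea were not called between the strains (0.06, adjusted p 0.873), and BTN2 TE was lower in ∆ntd (-1.085, adjusted p 0.0192). HSP82 RNA in ∆ntd relative to WT was -1.49 ± 0.07 in urea (adjusted p 2.65e-18) and -1.71 ± 0.07 in SD (adjusted p 2.09e-18), beside KAR2 at -1.13 and -0.93.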
